A study of Homo sapiens with 6 samples.

Results

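Translesion DNA polymerases, the primase-polymerase PrimPol and DNA polymerase theta are described here as a set of 9 genes, POLH, POLI, POLK, REV1, REV3L, MAD2L2, RAD18, PRIMPOL and POLQ. They were chosen by name, as genes of damage bypass, repriming and end joining, from a deposited table of raw read counts for 25330 gene symbols. Earlier results of these data were known when the choice was made. All 9 were in the table and all 9 passed the filter on low counts. The cells were MDA-MB-231, a long-established line of human breast cancer that lacks hormone receptors and HER2 amplification, grown in RPMI medium with 10% serum and no listed treatment. The tested genotype is labelled RNASEH2A KO, with 3 libraries under the column name RN1, and its counterpart is labelled a CTRV2 control, also with 3 libraries. RNASEH2A carries the active site of RNase H2, which cuts out ribonucleotides left in DNA and degrades the RNA strand of RNA-DNA hybrids. RNA was taken at different passages within each genotype, and the sources used here do not give whether either line is 1 clone or a pool, so the p-values below measure the spread between passages.

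When a replicative polymerase stalls at a damaged base or an unremoved ribonucleotide, cells can tolerate the block in several ways. RAD18, with its partner RAD6, attaches ubiquitin to the sliding clamp PCNA, which helps recruit the Y-family polymerases eta, iota, kappa and REV1. These insert a nucleotide opposite the lesion, and polymerase zeta, built on REV3L and MAD2L2, extends from it. PrimPol starts synthesis afresh beyond the lesion and leaves a gap behind, and polymerase theta seals breaks by joining ends at short repeats. The series title places the study in replication stress and DNA damage, so the comparison asks whether transcripts of these tolerance enzymes differ when RNASEH2A is disrupted.

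None of the 9 genes passed the test between knockout and control libraries. In edgeR's quasi-likelihood test, with Benjamini-Hochberg adjustment over 14199 tested genes and a threshold of 0.05, 0 of 9 members were called, where 12.1% of all tested genes were. DESeq2 and limma-voom also called 0 of the 9. An unadjusted edgeR p under 0.05 was found at 1 member, POLQ, and at 3939 of all 14199 tested genes. The members' 3 knockout and 3 control values overlapped at every one of the 9 genes, whereas they did not overlap at 33.5% of all tested genes. Their median log2 fold change was -0.0048, beside 0.0035 over all tested genes. Of the members 3 had a positive and 6 a negative fold change. The 95% intervals included no change at 8 genes, reached 1.5-fold at 1 gene and reached 2-fold at none, the outermost bounds being 0.742-fold and 1.71-fold.

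The libraries were of similar depth, from 25419877 to 31596286 counts, and a count of 0 allows up to 0.0949 to 0.118 CPM (a gene's count relative to its library's depth), a limit for counting error only. The first principal component, with 52.1% of the variance of log2 CPM, separated the genotypes. The second, with 22.0%, set knockout replicate 1 (32.7) and control replicate 1 (12.4) apart from the other 4 libraries (-19.0 to -3.74). RNASEH2A itself had 7, 8 and 16 counts in the libraries labelled knockout and 10, 6 and 15 in controls, a difference of -0.04 in log2(CPM + 0.5). A two-sided exact permutation test gave p = 0.8, and 3 libraries against 3 cannot go below 0.1. In the annotation 30.8% of its exonic bases are shared with THSD8 on the same strand, and both groups' counts are too low to check the labels, so every direction below rests on the genotype label. Of 6 markers listed for the mesenchymal-like line, AXL, CAV1, CD44, MSN and VIM had at least 684 CPM in every library (VIM 684 to 761 CPM in knockouts and 704 to 755 CPM in controls) and LDHB had 13.6 to 14.5 CPM in knockouts and 16.8 to 17.4 CPM in controls. Of 6 luminal and hormone receptor markers, ESR1 had 0 counts in all 6 libraries and FOXA1 and PGR were at most 0.431 CPM, but KRT8 stood at 805 to 854 CPM in knockouts and 859 to 893 CPM in controls, ERBB2 at 109 to 127 CPM in knockouts and 111 to 122 CPM in controls, and GATA3 at 29.5 to 33.7 CPM in knockouts and 34.3 to 38.4 CPM in controls. Summed markers of leukocytes (2.59 to 4.36 CPM in knockouts, 4.39 to 5.05 CPM in controls, with PTPRC at 0 in knockouts and at most 0.238 CPM in controls) and of fibroblasts and endothelium (5.86 to 10.3 CPM in knockouts, 11.5 to 12.7 CPM in controls) were low. These sums cover the 4 of 6 listed leukocyte markers and the 5 of 6 listed fibroblast and endothelial markers that were among the counted symbols. In such bulk libraries, fewer cells that express a gene and less RNA per cell cannot be told apart.

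**Figure D1:**
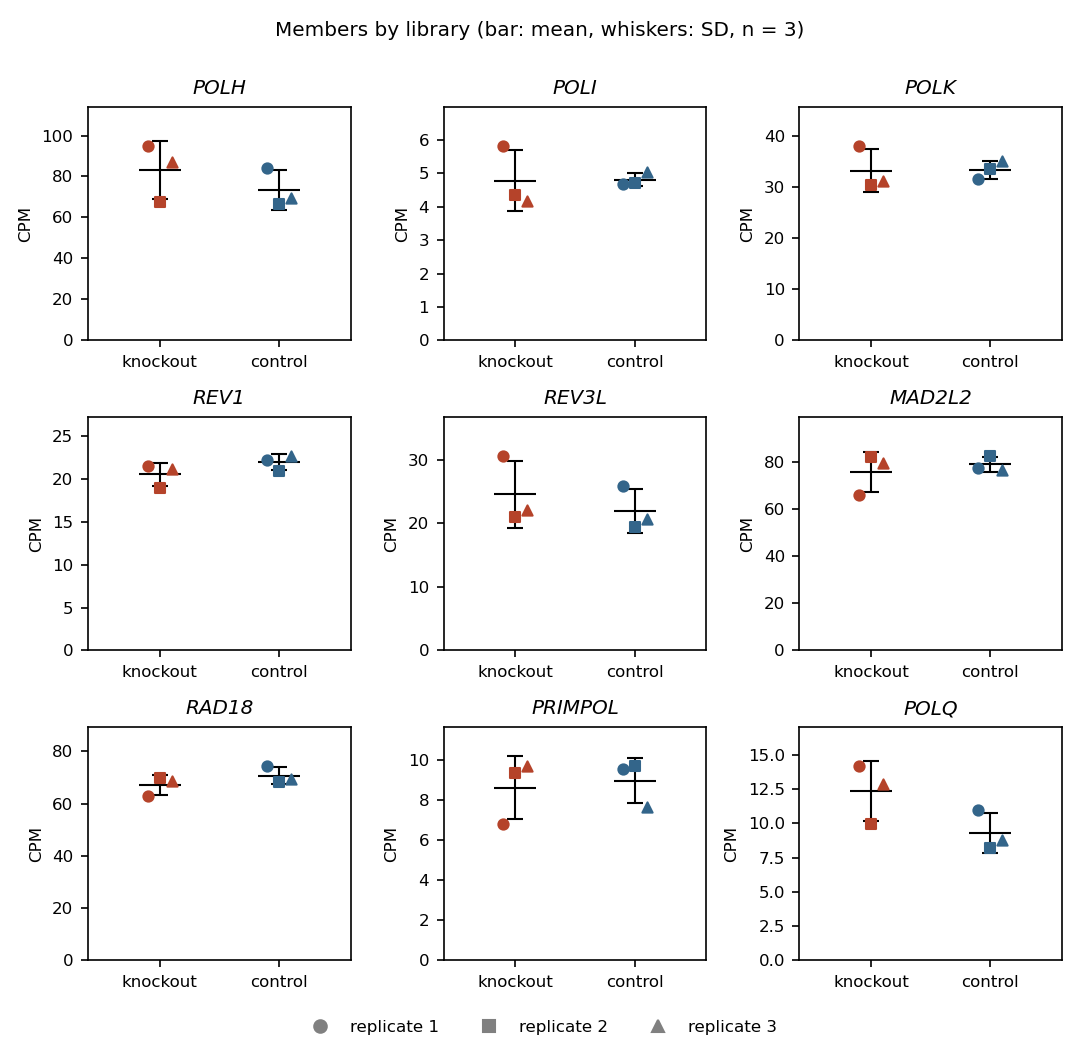
Level (CPM) of the 9 genes in each library, with knockout libraries at the left and control libraries at the right of each panel, a bar for the mean and whiskers for the SD (n = 3). The symbols mark the replicate number, and at all 9 genes the groups overlap; POLH, REV3L and POLQ are highest in replicate 1 of both groups.

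Among the Y-family polymerases, POLH encodes polymerase eta, which copies accurately past ultraviolet-induced thymine dimers (chromosome 6, 43576150 to 43615660, plus strand, GENCODE 29 on GRCh38). It had 94.9, 67.6 and 87.1 CPM in knockout replicates 1, 2 and 3, against 84.3, 66.4 and 69.5 CPM in control replicates 1, 2 and 3. Knockout replicates 1 and 3 lay above every control and replicate 2 lay between the 2 lower controls, so the groups overlapped. The log2 fold change was 0.18 ± 0.13 (SE), with a 95% interval of -0.11 to 0.47 and an edgeR adjusted p of 0.408. POLI encodes polymerase iota, an error-prone inserter (chromosome 18, 54269404 to 54321266). Its 5.82, 4.35 and 4.17 CPM in knockouts spread on both sides of the 4.69, 4.70 and 5.04 CPM in controls. The log2 fold change of POLI was -0.0048 ± 0.17 (SE), with an interval of -0.39 to 0.38.

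POLK encodes polymerase kappa, which bypasses bulky adducts on guanine (chromosome 5, 75511756 to 75601144). It stood at 38.1, 30.4 and 31.2 CPM in knockouts, against 31.5, 33.5 and 35.1 CPM in controls. As with POLI, knockout replicate 1 was the highest of all 6 libraries and the other 2 knockouts were the lowest. The log2 fold change of POLK was -0.0048 ± 0.10 (SE), interval -0.24 to 0.23 (edgeR adjusted p = 0.982). REV1 encodes a deoxycytidyl transferase that also serves as the scaffold on which other translesion polymerases meet (chromosome 2, 99400475 to 99490035). It had 21.6, 19.0 and 21.1 CPM in knockouts, against 22.3, 20.9 and 22.7 CPM in controls. Knockout replicate 2 was the lowest library and the other 2 knockouts lay among the controls. The log2 fold change of REV1 was -0.10 ± 0.09 (SE), with an interval of -0.30 to 0.11.

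Polymerase zeta, the extender, is represented by its catalytic subunit REV3L and by MAD2L2, also called REV7, an adaptor that acts in the shieldin complex as well. REV3L (chromosome 6, 111299028 to 111483715) had 30.6, 21.1 and 22.1 CPM in knockouts, against 26.0, 19.4 and 20.6 CPM in controls. Replicate 1 was the highest library within each genotype, and the coefficient of variation, 21.4% in knockouts and 15.8% in controls, was the largest of the set in both. The log2 fold change of REV3L was 0.16 ± 0.16 (SE), with an edgeR adjusted p of 0.561, and without knockout replicate 1 it was -0.03. MAD2L2 (chromosome 1, 11674480 to 11691650) had 66.1, 82.0 and 79.4 CPM in knockouts, against 77.5, 82.6 and 76.8 CPM in controls. Here knockout replicate 1 was the lowest of the 6 libraries and the others lay close together. Its log2 fold change was -0.06 ± 0.09 (SE), interval -0.26 to 0.14.

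RAD18, the ubiquitin ligase upstream of these enzymes (chromosome 3, 8775402 to 8963773), had 62.9, 69.9 and 68.6 CPM in knockouts, against 74.5, 68.2 and 69.5 CPM in controls. Apart from the low knockout replicate 1 and the high control replicate 1, the libraries lay close together. The standard error of RAD18 was the smallest of the 9, and its log2 fold change was -0.08 ± 0.07 (SE), with an interval of -0.24 to 0.09, or 0.847-fold to 1.06-fold. PRIMPOL, the repriming enzyme (chromosome 4, 184649613 to 184694963), had 6.82, 9.34 and 9.70 CPM in knockouts, against 9.55, 9.68 and 7.66 CPM in controls. Each group held 1 low and 2 higher libraries, namely replicate 1 of the knockouts and replicate 3 of the controls. The log2 fold change of PRIMPOL was -0.06 ± 0.16 (SE), interval -0.43 to 0.31 (edgeR adjusted p = 0.850). Strand-specific libraries were made, per the labels, but the strand setting of the counting is not stated, and 12.2% of the exonic bases of PRIMPOL lie opposite exons of CENPU. The same share was 11.0% for REV1, 10.8% for POLK, 6.60% for POLI and 5.58% for REV3L, and at most 0.113% for POLH, POLQ, MAD2L2 and RAD18, while 0 of these bases overlapped another gene on the same strand.

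POLQ encodes polymerase theta, whose helicase and polymerase domains drive microhomology-mediated end joining (chromosome 3, 121431427 to 121546641). It had the largest fold change and the smallest p of the set, ranking 3322 of 14199 tested genes by p. The counts were 456, 278 and 362 in knockouts and 325, 234 and 222 in controls, which gave 14.2, 9.99 and 12.9 CPM in knockouts, against 11.0, 8.21 and 8.81 CPM in controls. Of the knockouts 2 lay above every control, and the lowest, replicate 2, was below control replicate 1. The mean was 12.4 ± 2.16 CPM in knockouts and 9.33 ± 1.45 CPM in controls (SD, n = 3 each), a log2 fold change of 0.41 ± 0.16 (SE), or 1.33-fold with an interval of 1.03 to 1.71. This did not pass in edgeR (unadjusted p = 0.0320, adjusted p = 0.137), DESeq2 (adjusted p = 0.122) or limma-voom (adjusted p = 0.149).

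The sign of the POLQ difference was positive in all 18 alternatives run, from 0.29 without knockout replicate 1 to 0.54 without knockout replicate 2. It passed without the replicate 1 libraries of both groups, an alternative added after seeing the data that leaves 2 libraries a group (log2 fold change 0.43, edgeR adjusted p = 0.0345). That fit called 30.4% of all tested genes. The summed level of 12 proliferation markers was 3641, 3397 and 3525 CPM in knockouts and 3526, 3192 and 3097 CPM in controls, the order of libraries within each genotype being that of POLQ except for control replicates 2 and 3. Of these 12 genes BUB1, a spindle checkpoint kinase, was called higher (0.39 ± 0.06 SE, edgeR adjusted p = 0.00446) and 11 were not called. The groups did not overlap at 5 of the 12, where 33.5% of all tested genes did not: BUB1, and with higher knockout values but no call AURKA (0.25 ± 0.08 SE, edgeR adjusted p = 0.0769), CCNB1 (0.25 ± 0.09 SE, edgeR adjusted p = 0.0930), TOP2A (0.16 ± 0.06 SE, edgeR adjusted p = 0.128) and CDK1 (0.16 ± 0.06 SE, edgeR adjusted p = 0.133). MKI67, where the groups overlapped, had 568, 345 and 475 CPM in knockouts and 612, 417 and 372 CPM in controls. Its SD in knockouts, 112 CPM, was the largest of the 12, ahead of TOP2A at 60.3 CPM. The order of the knockout sums therefore rests largely on MKI67 and does not describe the 12 markers as a set. Over the 12 markers 7 fold changes were positive and 5 negative, with a median log2 fold change of 0.015. Those below 0 included MCM2 (-0.14), MCM6 (-0.10) and E2F1 (-0.12), which were not called. The part of proliferation in the POLQ difference was not tested.

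**Figure D2:**
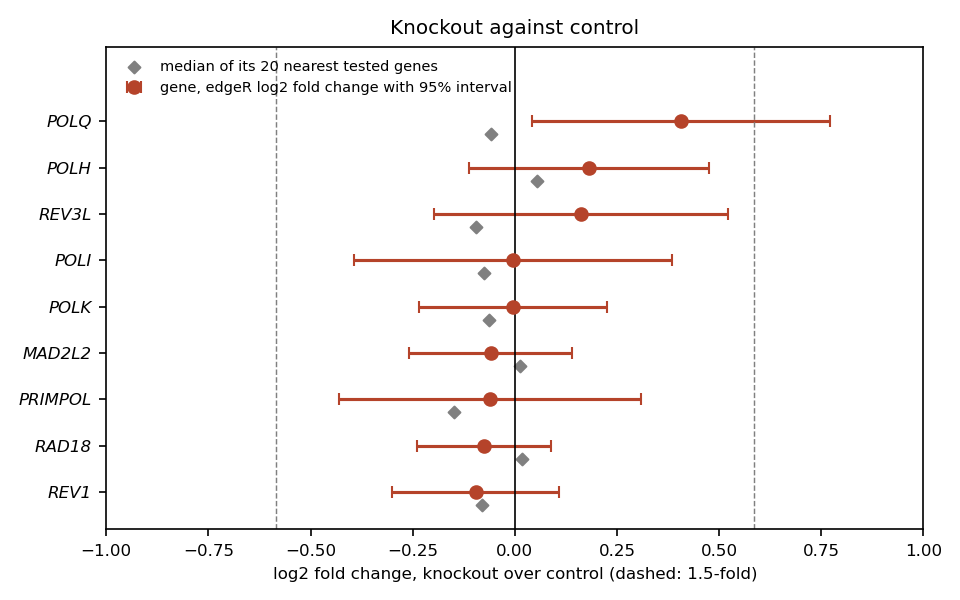
Log2 fold change of each gene, knockout over control, from edgeR (circles, with 95% intervals) and the median fold change of its 20 nearest tested genes on the chromosome (diamonds). POLQ, at 0.41, is the only one of the 9 genes whose interval does not include 0 and the only one whose interval reaches the dashed line at 1.5-fold.

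POLQ, POLH and REV3L were the 3 members highest in replicate 1 of both groups, so their promoter windows, from 250 bases before to 50 after the RefSeq start (GRCh38.p14), are shown for comparison. Capitals mark matches on either strand to the letters TTTGAA, the core of the cell cycle genes homology region found in many G2/M genes, and to GGCGGGAA, an E2F-type sequence. REV3L has 2 listed windows, and the one nearer the gene body is printed.
POLQ, chr3:121545939-121546238, minus strand: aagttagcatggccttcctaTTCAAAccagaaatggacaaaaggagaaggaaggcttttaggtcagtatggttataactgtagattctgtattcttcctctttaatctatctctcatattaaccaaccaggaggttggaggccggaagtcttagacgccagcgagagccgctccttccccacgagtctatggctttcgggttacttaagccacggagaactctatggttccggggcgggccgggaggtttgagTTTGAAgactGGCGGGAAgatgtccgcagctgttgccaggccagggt
POLH, chr6:43575935-43576234, plus strand: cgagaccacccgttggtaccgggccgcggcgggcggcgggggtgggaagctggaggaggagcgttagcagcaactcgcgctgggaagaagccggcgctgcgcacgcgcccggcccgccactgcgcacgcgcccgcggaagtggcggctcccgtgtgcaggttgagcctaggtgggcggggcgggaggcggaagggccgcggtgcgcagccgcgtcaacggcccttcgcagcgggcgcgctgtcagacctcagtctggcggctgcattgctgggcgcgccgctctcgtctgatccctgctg
REV3L, chr6:111483169-111483468, minus strand: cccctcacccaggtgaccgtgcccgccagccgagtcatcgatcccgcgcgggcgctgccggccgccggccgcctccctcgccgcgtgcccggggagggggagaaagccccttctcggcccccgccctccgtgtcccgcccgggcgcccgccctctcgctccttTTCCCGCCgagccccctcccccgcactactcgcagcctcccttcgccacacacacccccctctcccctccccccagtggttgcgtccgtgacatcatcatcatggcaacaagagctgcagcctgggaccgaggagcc

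The POLQ window held TTTGAA in 2 places, from bases 21 (as its reverse complement) and 254 of the window, and GGCGGGAA once, from base 264. The downstream TTTGAA and GGCGGGAA lay 4 bases apart, just after the start site. The POLH window held neither, and the REV3L window held the reverse complement of GGCGGGAA from base 164. Windows were found for all 9 members, 11 in all. The other matches were GGCGGGAA at POLI and TTTGAA at PRIMPOL, and none was found in the windows of POLK, REV1, MAD2L2 or RAD18 or in the first REV3L window. Of 15945 windows of tested genes, 10.55% held TTTGAA and 4.70% held GGCGGGAA. CACGTG, an E-box, was found at POLI and REV1 (9.12% of windows) and CCAAT at 1 MAD2L2 window (34.3%). These matches describe letters in a window and do not show binding.

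Levels can be set side by side only per length, here as CPM per kilobase (kb) of the principal GENCODE 29 transcript. MAD2L2, with the shortest transcript at 1860 bases, was the most abundant at 40.8 ± 4.58 CPM per kb in knockouts and 42.5 ± 1.70 in controls (SD, n = 3 each). POLH followed at 23.5 ± 3.97 in knockouts and 20.7 ± 2.70 in controls, and RAD18 at 11.4 ± 0.626 and 12.0 ± 0.562 CPM per kb in knockouts and controls. POLK, REV1 and PRIMPOL formed a middle tier at 5.62, 4.32 and 3.77 CPM per kb in knockouts and 5.64, 4.62 and 3.92 in controls. REV3L, POLQ and POLI were the lowest, at 2.27, 1.41 and 0.780 CPM per kb in knockouts and 2.03, 1.06 and 0.784 in controls. Neighbours in this order did not overlap in any library, apart from REV1 and PRIMPOL in knockouts. With the length of all exons of a gene in place of the principal transcript, POLH (23.5 in knockouts, 20.7 in controls) and MAD2L2 (22.8 in knockouts, 23.8 in controls) were close. PRIMPOL (3.03 in knockouts, 3.15 in controls) then also stood above REV1 (2.64 in knockouts, 2.83 in controls), so the order of both pairs rests on the length used.

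**Figure D3:**
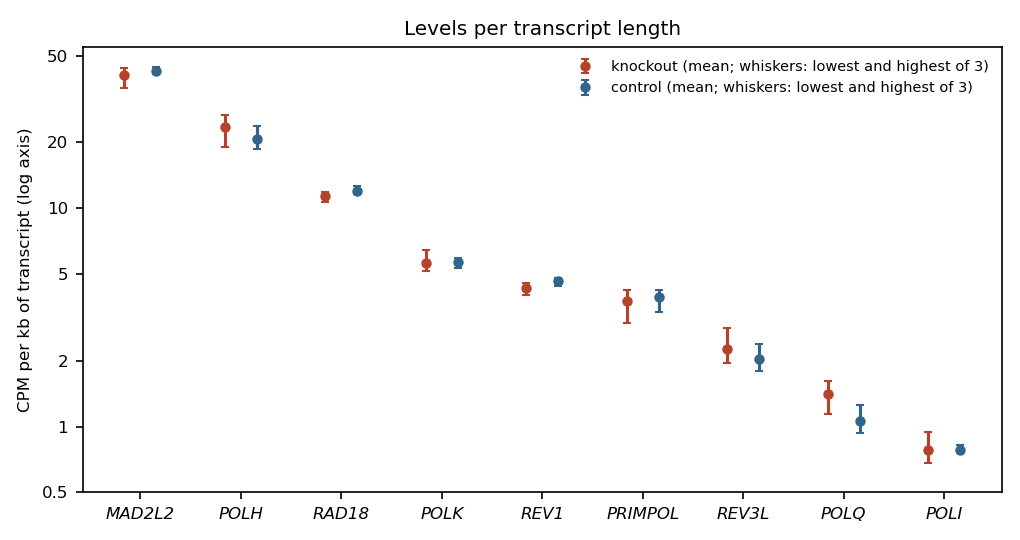
Level of each gene per kb of its principal transcript, on a log axis, in knockout and control libraries, as the mean with whiskers from the lowest to the highest of 3 libraries. MAD2L2 is at the top, at 40.8 CPM per kb in knockouts and 42.5 in controls, and POLI at the bottom, at 0.780 in knockouts and 0.784 in controls, and the order by mean is the same in both genotypes.

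Within the knockouts, replicate 1 was at one end of the spread for every member. The highest value of 6 members (POLH, POLI, POLK, POLQ, REV1 and REV3L) and the lowest of the other 3 (MAD2L2, PRIMPOL and RAD18) lay there. Knockout replicate 1 also stood apart over all genes. Its chi-square per degree of freedom was 27.1 against replicate 2 and 17.7 against replicate 3, while replicates 2 and 3 differed by 5.56. The shares of all tested genes at an end in knockout replicate 1, or highest in replicate 1 of both groups, were not counted. The log2 level of REV3L in knockout replicate 1 was 0.50 above the mean of the other knockouts, that of POLI 0.45, POLQ 0.32, POLH 0.31 and POLK 0.30 above, while PRIMPOL was at -0.48 and MAD2L2 at -0.29. The controls did not repeat this at every member. In control replicate 1, REV3L was 0.37, POLQ 0.36 and POLH 0.31 above the other controls and REV1 was 0.03 above, while POLI was at -0.05, POLK at -0.12 and MAD2L2 at -0.04. PRIMPOL and RAD18, low in knockout replicate 1, were 0.15 and 0.11 above the others in control replicate 1. Transcript length moved with the replicate 1 values over all genes. In knockout replicate 1, the median of 960 tested genes with transcripts over 8000 bases was 0.16 above the other knockouts, and that of 3850 genes of up to 2000 bases was at -0.09. In control replicate 1 the medians of the same classes were 0.10 and -0.02. The principal transcripts of REV3L and POLQ are 10815 and 8775 bases long and those of PRIMPOL and MAD2L2 are 2289 and 1860, but POLH (3540 bases) and RAD18 (5886 bases) lay at 0.31 and -0.14 in knockout replicate 1, where their class medians were -0.02 and 0.06. The part of length in the members' values was not tested. With the length trend subtracted in each library, an alternative added after seeing the data, POLQ was at 0.42 (limma adjusted p = 0.0727) and 0 of 9 members were called.

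**Figure D4:**
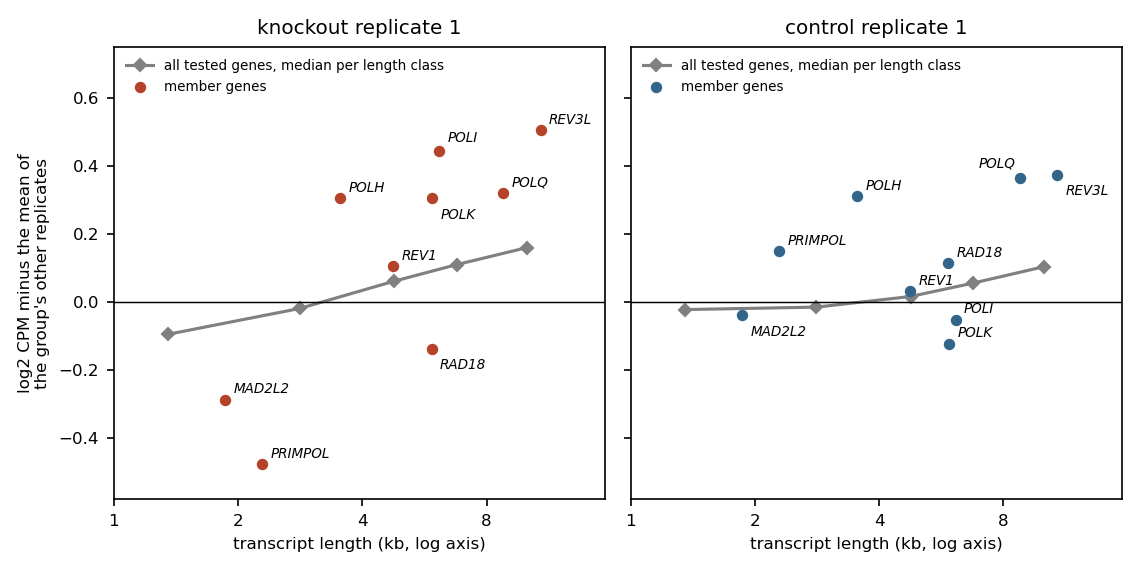
Log2 CPM in replicate 1 minus the mean of the other replicates of the same genotype, against transcript length on a log axis, for knockouts (left) and controls (right); points are the 9 genes and diamonds the medians of all tested genes in 5 length classes. In knockout replicate 1 the class medians run from -0.09 to 0.16 and REV3L lies at 0.50.

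The genomic neighbourhoods of the members were also described. The median log2 fold change of the 20 nearest tested genes, 10 on each side, ran from -0.15 around PRIMPOL to 0.06 around POLH. Of each set of 20, 0 to 4 were called, where 12.1% of all tested genes were. Around POLQ, itself at 0.41, the median was -0.06, with 8 of 20 fold changes positive and 2 of 20 called. Subtracting the neighbour median in each library left the POLQ log2 fold change at 0.46 (limma adjusted p = 0.0885) and that of REV3L at 0.23 (limma adjusted p = 0.387). Around PRIMPOL, POLI and POLK the neighbour medians (-0.15, -0.08 and -0.06) were larger in size than the members' own log2 fold changes (-0.06, -0.0048 and -0.0048). With the medians subtracted PRIMPOL, POLI and POLK were positive, at 0.027, 0.0083 and 0.025.

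Genes that act with the members were read from 5 lists. Among 17 genes of PCNA ubiquitylation and template switching, 1 rose, 1 fell and 15 were not called (11.8% called, against 12.1% of all tested genes), with a median log2 fold change of -0.13. The gene that rose was RFWD3, a ubiquitin ligase of stalled forks, at 134, 168 and 142 CPM in knockouts, against 107, 116 and 117 CPM in controls (0.39 ± 0.09 SE, edgeR adjusted p = 0.0231). PCNA, the clamp that RAD18 modifies, fell, at 134, 152 and 154 CPM in knockouts, against 172, 196 and 201 CPM in controls (-0.37 ± 0.08 SE, edgeR adjusted p = 0.0189). The groups did not overlap at either gene. Both moved with their neighbourhoods: the 20 genes nearest RFWD3 on chromosome 16 had a median log2 fold change of 0.39 and those nearest PCNA on chromosome 20 a median of -0.36. With the neighbour median subtracted RFWD3 was at 0.03 and PCNA at -0.03, and neither passed (limma adjusted p = 0.868 and 0.888). UBE2A and UBE2B, the RAD6 enzymes that partner RAD18, were at 0.10 and -0.02 on the log2 fold change scale and were not called.

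In the list of polymerase zeta and delta subunits and partners of MAD2L2, 1 of 12 fell, 0 rose and 11 were not called (8.33% called, against 12.1% of all tested genes), with a median of -0.07. TRIP13, the ATPase that remodels MAD2L2 and takes shieldin apart, had 52.6, 56.0 and 51.0 CPM in knockouts, against 67.2, 60.9 and 67.1 CPM in controls (-0.29 ± 0.08 SE, edgeR adjusted p = 0.0347). The median of its 20 neighbours on chromosome 5 was -0.28, and subtracting it left TRIP13 at -0.04 (limma adjusted p = 0.851). POLD2 and POLD3, which polymerase zeta shares with polymerase delta, were at -0.12 ± 0.10 and -0.22 ± 0.10 (SE) and were not called.

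Among 15 genes of end joining by polymerase theta, 1 rose, 1 fell and 13 were not called (13.3% called, against 12.1% of all tested genes), with a median of 0.03. PARP1, which senses breaks and promotes this pathway, fell, with 215, 245 and 240 CPM in knockouts, against 282, 299 and 297 CPM in controls (-0.33 ± 0.07 SE, edgeR adjusted p = 0.0140). XRCC1, the scaffold of LIG3, rose, with 18.4, 18.0 and 18.0 CPM in knockouts, against 12.9, 14.1 and 12.6 CPM in controls (0.46 ± 0.09 SE, edgeR adjusted p = 0.0146). At both genes the groups did not overlap. With neighbour medians of -0.16 and 0.13 subtracted, PARP1 was at -0.19 and XRCC1 at 0.26, and neither passed (limma adjusted p = 0.152 and 0.161). LIG3 itself was at -0.04 ± 0.08 and HELQ, a helicase related to polymerase theta, at 0.19 ± 0.12 (SE), and neither was called.

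No gene was called among 10 of priming, repriming and fork reversal, where 12.1% of all tested genes were. Of all 14199 tested genes 3939 had an unadjusted edgeR p under 0.05, as had 2 of these 10 (median 0.02). The smallest p-values there belonged to POLA1, the catalytic subunit of the polymerase alpha and primase complex (-0.28 ± 0.09 SE, edgeR adjusted p = 0.0778), and RPA1, the large subunit of the single-strand binding protein to which PrimPol docks (-0.16 ± 0.06 SE, edgeR adjusted p = 0.133). Nor was any called among 9 tested genes of other DNA polymerases (median 0.02, 2 with an unadjusted p under 0.05). POLB, the gap-filling polymerase of base excision repair, lay nearest the threshold with 7.26, 6.54 and 6.60 CPM in knockouts, against 8.91, 9.61 and 8.85 CPM in controls (-0.42 ± 0.12 SE, edgeR adjusted p = 0.0503), ahead of POLE4, a small subunit of polymerase epsilon (0.31 ± 0.11 SE, edgeR adjusted p = 0.109). POLN, a relative of POLQ, had at most 0.125 CPM in any library and was not tested. DNTT was listed too but had no row among the deposited counts.

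**Figure D5:**
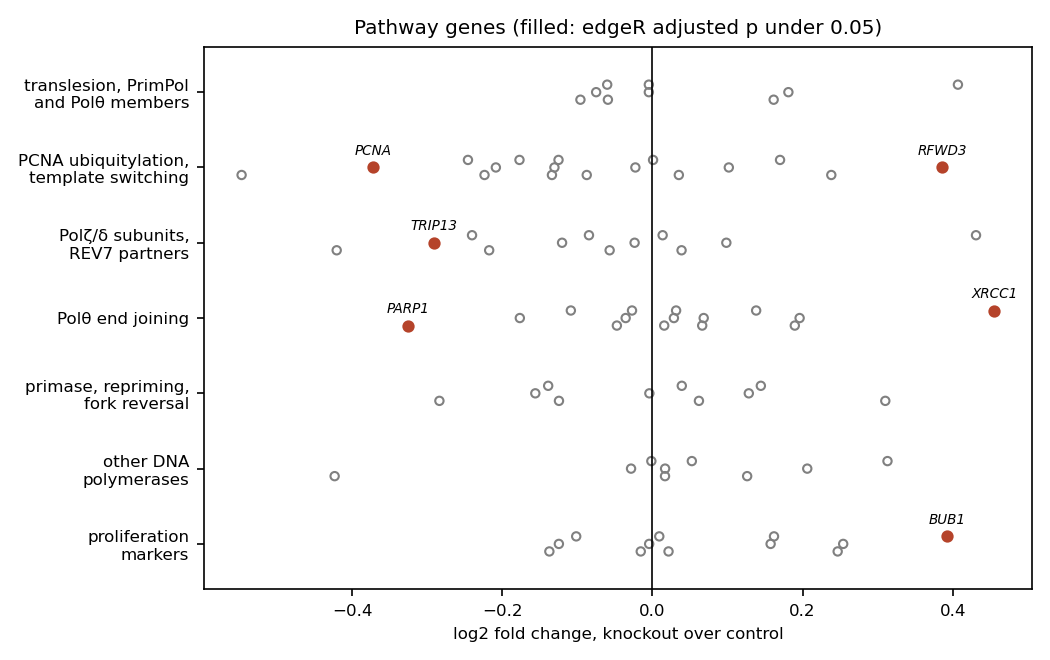
Log2 fold changes, knockout over control, of the tested genes of each list, with genes called at an edgeR adjusted p under 0.05 filled and named. Of the 9 members 0 were called, and of the partner genes RFWD3 and XRCC1 rose while PCNA, TRIP13 and PARP1 fell; BUB1 is a proliferation marker.

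POLQ was the member with the smallest p, and the genes most like it over the 6 libraries were CASD1, KATNIP and FMNL1-DT, with Pearson correlations of log2 CPM of 0.996, 0.996 and 0.995. These were taken from 14199 genes with 6 points each, and the points share depth and the replicate 1 pattern, so the values are a description. CASD1 had 15.6, 13.7 and 15.1 CPM in knockouts, against 14.2, 13.0 and 13.1 CPM in controls, and none of the 3 genes was called (edgeR adjusted p = 0.433, 0.325 and 0.174).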

How the data were processed

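Gene-level counts of 6 strand-specific poly-A libraries were analysed, 3 of each genotype label. The submitters' processing notes name FastQC, STAR (version 2) and the GRCh38 build; the sources used here do not give the counter, strand setting or annotation. The deposited raw counts hold whole numbers for 25330 symbols, and the authors' deposited log2 CPM table, whose filter and scaling are not stated, holds 15066 of them and served for an alternative only. Genes were kept by filterByExpr (14199), scaled by TMM and tested with edgeR 4.0.16 in R 4.3.3 (glmQLFit, glmQLFTest, genotype term, two-sided). The SE is the log2 fold change divided by the root of F, and intervals are 95%. Library totals run from 25419877 to 31596286 counts. On simulated counts over 14199 genes for this comparison, with 200 changed, 56.7% of 1.5-fold, 80.6% of 2-fold and 95.5% of 4-fold changes were recovered, and 6.06% of 165 calls were false. The counts were simulated independently for each gene and library, without the shared replicate 1 pattern, so these rates need not hold for the real libraries.

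Replicates of a group were compared by a chi-square over genes, 2.29 to 27.1 per degree of freedom, and all were kept as separate samples. CPM values are on the TMM scale, the limits for a count of 0 on library totals, and log2 CPM used a prior count of 2. Gene positions for neighbours and promoter windows come from RefSeq GRCh38.p14, which matched 24974 symbols directly and 142 by synonym, and transcript lengths from GENCODE 29, which covered 99.6% of tested genes. Alternatives were DESeq2 1.42.0, limma-voom (limma 3.58.1), RLE factors, library size scaling only, 2 other filters, a replicate block, glmTreat at 1.5-fold, limma on the deposited log2 CPM, neighbour medians subtracted and each library left out; the omission of both replicate 1 libraries and the length trend were added after seeing the data. The members and lists were chosen with earlier results of these data known. Named genes are all members, every called gene of each partner list or else its 2 smallest p-values, RNASEH2A, the 3 genes most like the member with the smallest p, and, chosen after their values were seen, UBE2A, UBE2B, POLD2, POLD3, LIG3, HELQ and the proliferation and cell type markers.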

Additional observations from a re-analysis of the deposited data

How the results depend on the processing

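The members' count of calls was 0 in the main edgeR test and in 16 of 18 alternatives, the exceptions being the replicate block and the fit without the replicate 1 libraries of both groups, with 1 each, POLQ. The sources used here do not state that the replicate numbers pair the samples. Deviations from the group means correlated at 0.316 between the replicate 1 libraries of the 2 genotypes. The values of either of these with replicates 2 and 3 of the other genotype were -0.243 to -0.154. Deviations within a group cancel at each gene, so values negative on balance follow from the 0.316 and add nothing to it. For replicates 2 and 3 the same-numbered values were 0.139 and 0.0855, and knockout replicate 2 correlated slightly better with control replicate 3 (0.141). With the number as a block POLQ stood at 0.40 (edgeR adjusted p = 0.0251) and 3099 genes were called, against 1718 in the main test. POLQ had an adjusted p from 0.0251 to 1 (the test against a 1.5-fold change) over its alternatives. Genes called numbered 153 against a 1.5-fold change, 945 with neighbour medians subtracted, 4312 without the replicate 1 libraries of both groups, and 524 to 3430 when 1 library was left out (3430 and 524 without knockout replicates 1 and 3, and 1055, 649 and 550 without control replicates 1, 2 and 3), with 0 members called each time a single library was left out. POLH, POLQ and REV1 kept their sign in all 18 alternatives. Among the small differences of the others, POLI was positive with library size scaling (0.0094), without a count filter (0.0056) and with neighbours subtracted (0.0083), as was POLK (0.0092, 0.0059 and 0.025); PRIMPOL was positive with neighbours subtracted (0.027), and without both replicate 1 libraries PRIMPOL (0.13), MAD2L2 (0.015) and RAD18 (0.0071) were positive. With 1 library left out, log2 fold changes ran from 0.076 (without knockout replicate 1) to 0.32 (without knockout replicate 2) for POLH, -0.13 to -0.036 (without knockout replicate 2) for REV1, -0.10 to -0.030 (without knockout replicate 1) for RAD18, 0.29 to 0.54 for POLQ, -0.17 to 0.085 for POLI, -0.11 to 0.061 for POLK, -0.029 to 0.30 for REV3L, -0.11 to 0.031 for MAD2L2 and -0.16 to 0.085 for PRIMPOL, and the RNASEH2A difference from -0.21 to 0.13. The causes of these changes were not tested. At this depth POLI and PRIMPOL, at under 300 counts a library, had the widest intervals.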
